A study of Homo sapiens with 5 samples.

Results

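The metallothionein cluster is a run of small related genes on the long arm of human chromosome 16. The 10 members described here are MT3, MT2A, MT1E, MT1M, MT1A, MT1B, MT1F, MT1G, MT1H and MT1X, chosen as a list of names and not by their peaks, though with earlier results of these data known, out of 20037 protein-coding genes of the annotation. All peaks were taken from the interval that reaches from 20 kb below MT3 to 20 kb above MT1X, chr16:56569528-56704196 on GRCh38, a length of 134669 bp. The chromatin came from the established line 786-O, grown from a human renal carcinoma. It was profiled by CUT&Tag, where a transposase tethered to an antibody tags the DNA around the antibody's target. One target was lactylated lysine 12 of histone H4 (H4K12la), which carries an acyl group derived from lactate, in 2 libraries of untreated cells and 2 libraries of cells given 10 µM dexamethasone, a synthetic glucocorticoid, for 48 h. The other was the glucocorticoid receptor (GR), in 1 library of dexamethasone-treated cells. All 5 libraries came from the same line and carry the same batch label.

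Metallothioneins are short proteins rich in cysteine that bind zinc, copper and cadmium and buffer cells against metal and oxidative stress. Their genes are classic targets of the zinc-sensing factor MTF1, which binds metal response elements in their promoters, and several of them are also induced by glucocorticoids. In kidney they are known for binding cadmium in the proximal tubule.

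The deposited lists held 129848 and 115182 H4K12la peaks in control, 82382 and 68980 in dexamethasone and 8065 GR peaks. The lists come without read totals. Depth is therefore unknown, and deeper sequencing alone can lengthen a list. The height of an H4K12la peak is a whole number the authors deposited for its summit. Heights of different lists are set side by side here as deposited and are not scaled to depth, and the GR list has no height. A percentile given with a height is the share of peaks in the same list that were as high or lower. In the control lists, 5 and 5 of 6 genes chosen as markers of the line had a peak at a gene end, against 1 and 3 of 6 markers of blood, endothelium, liver and glia. In the dexamethasone lists the numbers were 3 and 2 of 6 against 2 and 1 of 6, which hardly separates the marker lists.

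Promoter sequences were available for MT2A, MT1B, MT1H and MT1X, 4 of the 10 members, and are shown because GR peaks lay over those of MT2A and MT1X and not over those of MT1B and MT1H. Each line is the 250 bases before the RefSeq start on the plus strand of GRCh38.p14, written 5′ to 3′. Capitals mark matches to the core of the metal response element, searched on both strands as TGCACNC or TGCGCNC, where N is any base. The positions are chr16:56608334-56608583 for MT2A, chr16:56651636-56651885 for MT1B, chr16:56669564-56669813 for MT1H and chr16:56682220-56682469 for MT1X.
MT2A: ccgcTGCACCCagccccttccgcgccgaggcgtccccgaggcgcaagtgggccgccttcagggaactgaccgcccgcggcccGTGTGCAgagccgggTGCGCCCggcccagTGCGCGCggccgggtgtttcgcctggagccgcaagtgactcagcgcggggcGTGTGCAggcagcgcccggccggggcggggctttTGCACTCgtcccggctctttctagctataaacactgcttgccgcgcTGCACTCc
MT1B: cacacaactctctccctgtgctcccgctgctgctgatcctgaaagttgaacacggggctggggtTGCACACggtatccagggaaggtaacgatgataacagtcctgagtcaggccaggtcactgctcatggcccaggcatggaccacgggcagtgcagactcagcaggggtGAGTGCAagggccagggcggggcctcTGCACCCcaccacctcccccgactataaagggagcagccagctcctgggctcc
MT1H: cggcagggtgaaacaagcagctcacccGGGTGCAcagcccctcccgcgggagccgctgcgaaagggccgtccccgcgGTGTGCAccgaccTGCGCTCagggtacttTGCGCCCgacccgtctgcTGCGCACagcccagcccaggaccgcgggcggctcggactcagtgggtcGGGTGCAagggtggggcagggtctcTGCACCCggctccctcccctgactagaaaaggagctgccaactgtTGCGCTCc
MT1X: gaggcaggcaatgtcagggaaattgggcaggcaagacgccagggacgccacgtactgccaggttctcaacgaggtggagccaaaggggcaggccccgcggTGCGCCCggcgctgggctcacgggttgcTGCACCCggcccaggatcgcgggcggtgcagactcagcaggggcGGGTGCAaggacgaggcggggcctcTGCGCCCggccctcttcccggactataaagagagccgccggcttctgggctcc

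MT2A held 7 matches to the metal response element core, MT1H 8, MT1X 4 and MT1B 3. Of 15843 promoters of protein-coding genes read over the same 250 bases, 29.3% held at least 1 match, 2.03% at least 3 and 0.448% at least 4. A pair of matches stood at nearly the same place in all 4 sequences. Counted back from the start, one began at position -53 in MT1B, MT1H and MT1X and at position -54 in MT2A. The next one upstream began at position -78 in MT1H and MT1X, at -79 in MT1B and at -88 in MT2A. MT2A and MT1H also shared a match at position -8. The number of matches did not follow the GR peaks, since MT1H had the most and no peak of either target.

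The hexamer TGTTCT of the glucocorticoid response element, on either strand, was in none of the 4 sequences and in 9.43% of all promoters. These letters are thus not in these windows, and variants of them were not searched. Their absence says nothing of GR binding there or nearby. MT2A and MT1B each held 1 AP-1 site, TGACTCA on either strand, which 3.17% of promoters had. The GC box GGGCGG was matched 2 times in MT2A and MT1X and 1 time in MT1B and MT1H, against 56% of promoters with a match, and 1 match in MT1X overlapped a metal response element. TATAAA was present in MT2A, MT1B and MT1X and in 9.23% of promoters. G and C made up 62.4% of the bases in MT1B, 70.4% in MT1H, 70% in MT1X and 73.2% in MT2A, against a median of 62.4% over all promoters. CpG dinucleotides numbered 7 in MT1B, 22 in MT1H, 22 in MT1X and 32 in MT2A, with a median of 17 over all promoters. In global alignments the 3 MT1 promoters were 62.3% to 63.7% identical to each other and 54% to 55.3% identical to MT2A.

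**Figure D1:**
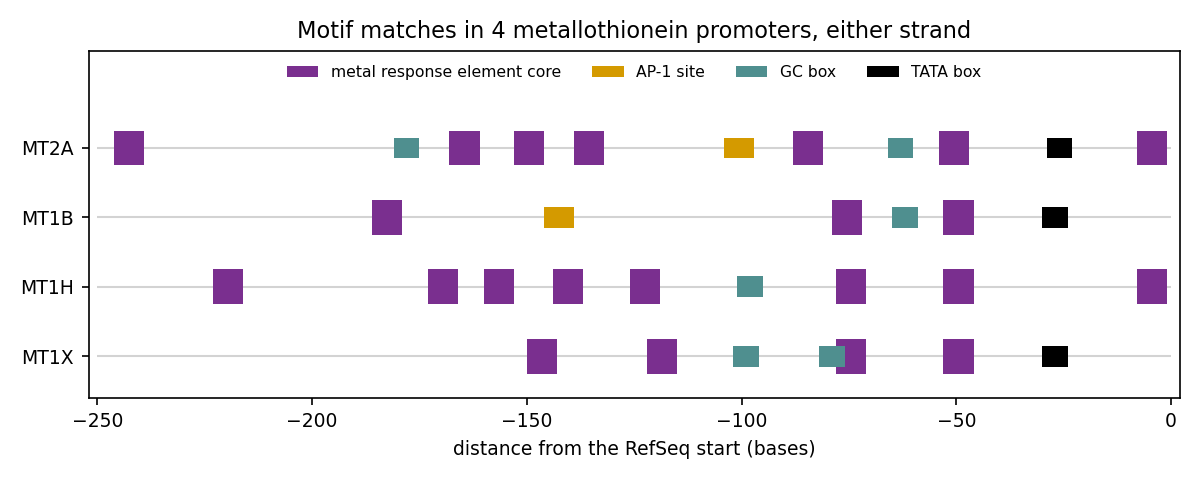
Matches to 4 motifs on either strand (boxes) in the 250 bases before the start of MT2A, MT1B, MT1H and MT1X, by distance from the start in bases. A metal response element core lies at position -53 or -54 in all 4, and MT2A and MT1H hold the most, 7 and 8.

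GR was listed at MT2A, MT1E and MT1X. MT2A, a widely expressed member, had a GR peak across its start at chr16:56608257-56608697, 441 bp long and covering the whole sequence shown. A longer GR peak lay further upstream at chr16:56606597-56607569. It covered 973 bp, longer than or as long as 97.9% of GR peaks, and its nearer edge was 1015 bp from the MT2A start, outside the window of 1 kb used below for gene ends. The upstream peak lay partly over LOC124903695, a long noncoding RNA gene on the minus strand that starts at position 56608433 and runs away from MT2A. The GR peak across the MT2A start also covered the start of this noncoding gene. Neither GR peak can therefore be assigned to MT2A alone.

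MT1E, one of the MT1 genes induced by metals, had a GR peak of 562 bp at chr16:56625536-56626097, centred 35 bp inside the lower-coordinate end of the gene. MT1X had one of 586 bp at chr16:56682057-56682642, centred 121 bp before its start and covering its whole sequence shown. The GR list had a median length of 435 bp, so the peaks at MT1E and MT1X were above it and the one across the MT2A start was close to it. No GR peak was listed elsewhere in the interval, nor within 117768 bp below it and 227559 bp above it. The 4 peaks carry consecutive row numbers, 5316 to 5319, with no number missing just before or after them.

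A GR end peak, meaning a peak that reached within 1 kb of either end of the gene, was thus listed for 3 of 10 members, close to the 32.3% of all protein-coding genes. The members' share does not stand out from the background. Of 22908 windows of the same length laid end to end over the genome, 22.8% held a GR peak and 1.05% held 4 or more, as the interval did. The windows were not matched to the interval for genes or for H4K12la peaks. These GR counts describe 1 library without a control antibody and carry no test.

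**Figure D2:**
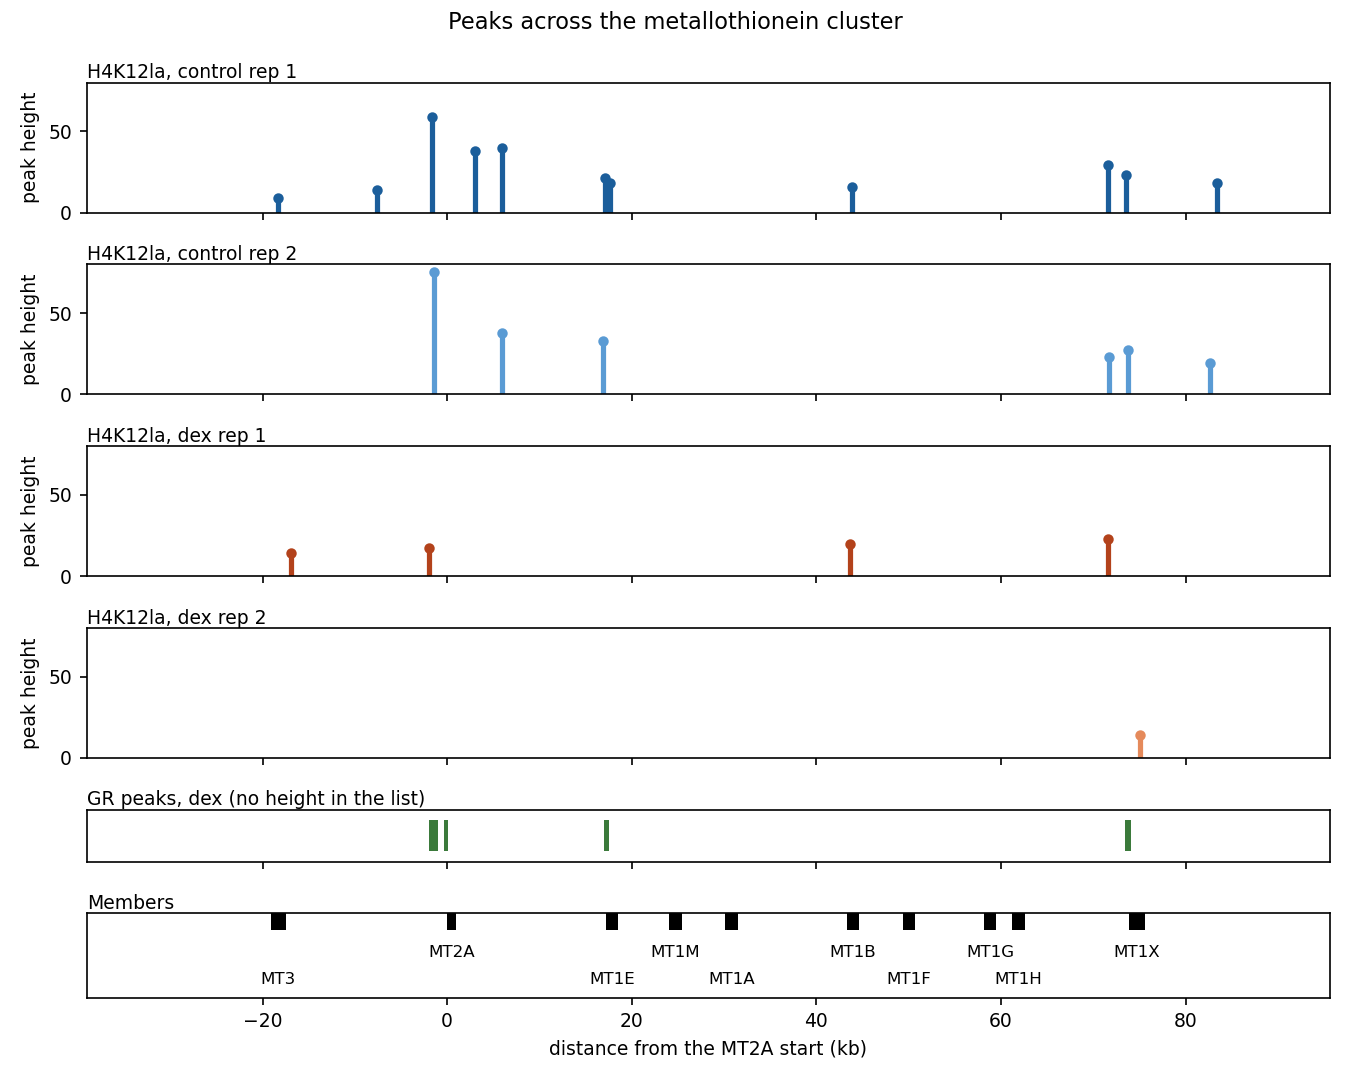
Peaks across the interval by distance from the MT2A start in kb. Stems give the summit and deposited height of each H4K12la peak in the 4 lists, boxes the GR peaks and the 10 genes. Control lists hold 11 and 6 peaks and dexamethasone lists 4 and 1, and no GR peak lies between MT1E and MT1X.

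MT2A carried the highest H4K12la peaks of the cluster in both control lists, though in neither dexamethasone list. Its end peak had a height of 59 in control replicate 1 and 75 in control replicate 2, at the 90.4 and 93.3 percentiles of their lists, and 17 in dexamethasone replicate 1, at the 26.3 percentile, while dexamethasone replicate 2 listed none. Both control values were above both dexamethasone values. These peaks lay upstream of the gene, with summits 1596, 1431 and 1984 bp from its start, and none reached the start. They overlapped the noncoding gene LOC124903695, which has the same end peaks, so they cannot be assigned to MT2A alone. The nearest edge was 439 and 292 bp away in control and 921 bp away in dexamethasone replicate 1. The control peaks were 2087 and 2028 bp long, at the 98 and 97.6 percentiles of length in their lists, and the dexamethasone peak was 1337 bp long. All 3 spanned the whole upstream GR peak. The GR peak across the start was met by control replicate 2, by 36 bp.

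MT1E was the one member with an end peak in both control lists and in neither dexamethasone list. Its height was 21 in control replicate 1 and 33 in control replicate 2. The control peaks overlapped the GR peak by 130 and 552 bp, and control replicate 1 had a further peak of height 18 inside the gene. Of all protein-coding genes, 18.8% had this pattern, so 1 of 10 members is not more than the background. Without dexamethasone replicate 1 MT2A had the pattern too, and without dexamethasone replicate 2 MT1X did, while with equal numbers of highest peaks from each list no member had it. The share of 18.8% was taken over the full lists and does not apply to these alternatives.

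MT1X, another MT1 gene induced by metals, had heights of 23 and 27 in the control lists and of 14 in dexamethasone replicate 2. No end peak was listed in dexamethasone replicate 1. The control peaks lay at the promoter, with summits 322 and 156 bp from the start, and overlapped the GR peak by 305 and 558 bp. The dexamethasone peak lay elsewhere, inside the gene with its summit 593 bp from the far end, and did not meet the GR peak.

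**Figure D3:**
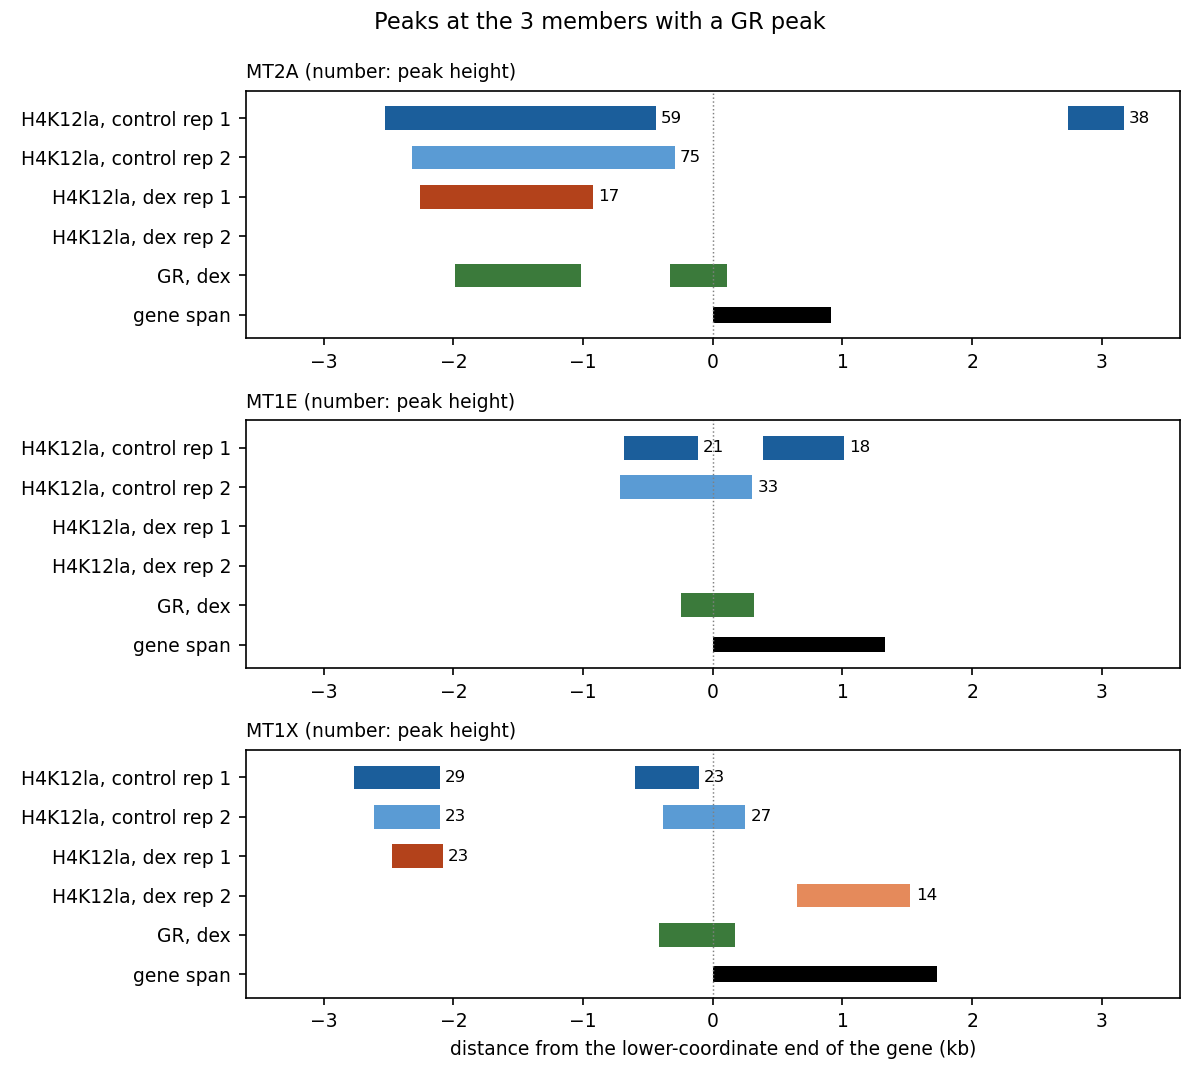
Extents of peaks (boxes) in each list around MT2A, MT1E and MT1X, by distance in kb from the lower-coordinate end of each gene, with the deposited H4K12la height beside each box. In the control lists H4K12la overlaps the GR peaks of MT1E and MT1X, and in the dexamethasone lists it meets the upstream GR peak of MT2A in replicate 1 alone.

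Seen from the GR peaks, control replicate 1 overlapped 3 of the 4 and control replicate 2 overlapped 4, against 81.9% and 86.7% of all GR peaks. Dexamethasone replicate 1 overlapped 1 and dexamethasone replicate 2 none, against 40.5% and 32% of all GR peaks. The pair at MT1E and MT1X, 2 of 4, met H4K12la in both control lists and in neither dexamethasone list, as did 34.9% of all GR peaks. None of the 4 met H4K12la in both dexamethasone lists, as 25.1% of all GR peaks did. GR was profiled in dexamethasone-treated cells alone. The control lists thus give H4K12la in untreated cells, at places where GR was found in treated cells.

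MT1B, which lies further along the MT1 array, had an end peak in 1 library of each group. The height was 16 in control replicate 1 and 20 in dexamethasone replicate 1, with none listed in the replicates 2. The peaks overlapped each other, and the dexamethasone peak alone reached the promoter sequence shown. MT3, a metallothionein known mainly from brain, had low values in the same libraries, 9 in control replicate 1 and 14 in dexamethasone replicate 1. The height of 9 was the lowest in its list, at the 0.4 percentile, and the MT3 peaks did not overlap each other, one lying inside the gene and the other across its far end. For MT1B and MT3 the groups overlap, since each group had a library with no peak.

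MT1M, MT1A, MT1F, MT1G and MT1H had no end peak in any H4K12la list and no GR peak. They are 5 of 10 members, against 28.5% of all protein-coding genes without an H4K12la end peak in any list. MT1G and MT1H lie close enough to share an end window. The members are related genes, and how the authors treated reads that align to several copies is not given in the sources used here. A member without a listed peak is therefore not shown to lack the mark.

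The order of the members by height in both control lists was MT2A, then MT1E and MT1X, then MT1B and MT3 with a peak in 1 list each, then the other 5. MT1E and MT1X cannot be ordered, since their heights of 21 and 33 and of 23 and 27 overlap. Over the 4 promoters themselves, taken with 50 bases after the start, H4K12la was listed at MT1X in both control lists and at MT1B in dexamethasone replicate 1. Of all promoters 45.2% and 49.4% had it in control and 22.7% and 17.5% in dexamethasone lists. MT1X alone of the 4 had the control-only pattern there, as 19.6% of all promoters did, and GR lay over 2 of the 4, against 29.5% of all.

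The 3 members with an end peak in both control lists were the 3 with a GR end peak. Of all genes with an end peak in both control lists 51.3% had a GR end peak, and of the other genes 4.92% did.

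**Figure D4:**
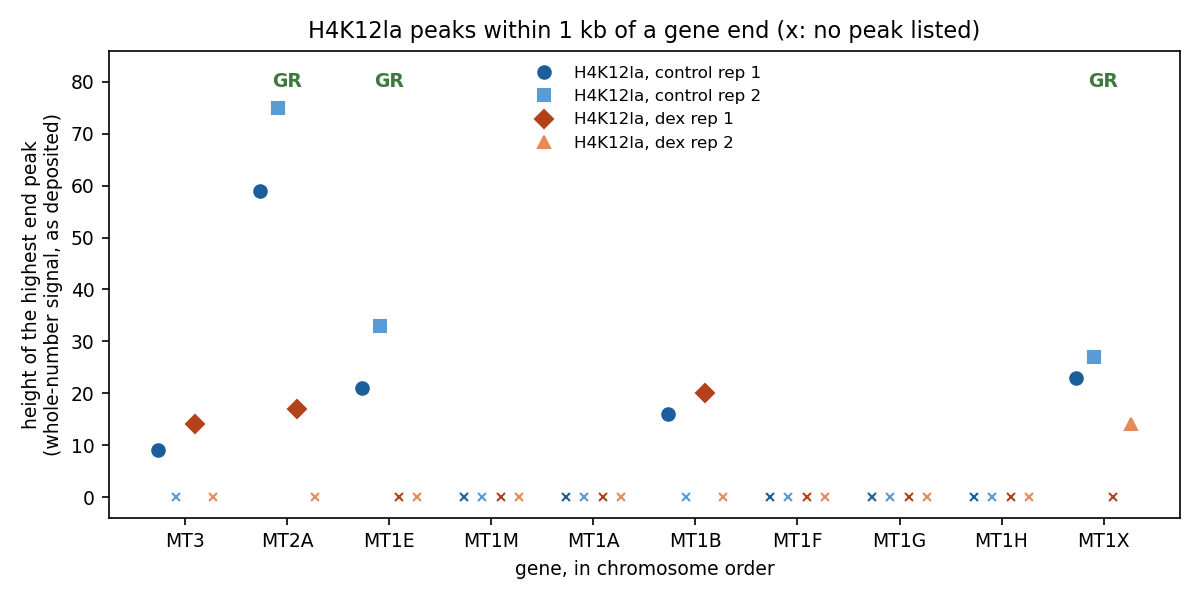
Height of the highest H4K12la peak within 1 kb of a gene end, for each member in chromosome order and each of the 4 lists. A cross at 0 means that no peak is listed, and GR marks the 3 members with a GR end peak. MT2A stands highest with 59 and 75 in control, and 5 members have no peak in any list.

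The design asks how dexamethasone altered H4K12la here. The interval held 11 and 6 peaks in the control lists, against 4 and 1 after dexamethasone. The means were 8.5 ± 3.54 (SD, n = 2) and 2.5 ± 2.12 (SD, n = 2). Their ratio was 0.294, and the groups did not overlap. The difference was larger than either SD. A two-sided exact permutation test over the libraries had p = 0.333, which is as small as 2 against 2 libraries allow. The difference of -6 peaks became -3.5 without control replicate 1 and -3 with equal numbers of highest peaks from each list. The labels do not state separate cultures for the replicates, so this p measures a spread that may be technical.

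Peaks covered 8215 and 6218 bp of the interval in control, or 6.1% and 4.62%, and 3256 and 876 bp after dexamethasone, or 2.42% and 0.65%. The means were 7217 ± 1410 (SD, n = 2) and 2066 ± 1680 (SD, n = 2) bp, with exact permutation p = 0.333. The mean height of the interval's peaks was 25.9 and 35.8 in the control lists, and 18.5 and 14 after dexamethasone. Both groups of values were again separate, with the control values higher, but the value of 14 is that of 1 peak. The median height of the interval's peaks was 21 and 30 in control, and 18.5 and 14 after dexamethasone. Over the whole lists it was 24 and 26 in control, and 23 and 24 after dexamethasone.

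Whole lists were shorter with dexamethasone too, by a ratio of the group means of 0.621. Per 100000 listed peaks, the interval held 8.69 and 5.34 without dexamethasone and 4.96 and 1.48 with it. The lower control and the higher dexamethasone value nearly met, and the ratio of the means was 0.459. Of 13645 windows of the same length with a peak in both control lists, 64.1% had fewer peaks in both dexamethasone than in both control lists, as the interval did, and 4.14% had more. Their median ratio was 0.571, with quartiles of 0.4 and 0.778, and 15.4% had a ratio as low as the interval or lower. Among 2989 windows whose mean control count was within 2 peaks of that of the interval, 12% did. The interval thus lay toward the low side of the windows without being far from the rest.

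**Figure D5:**
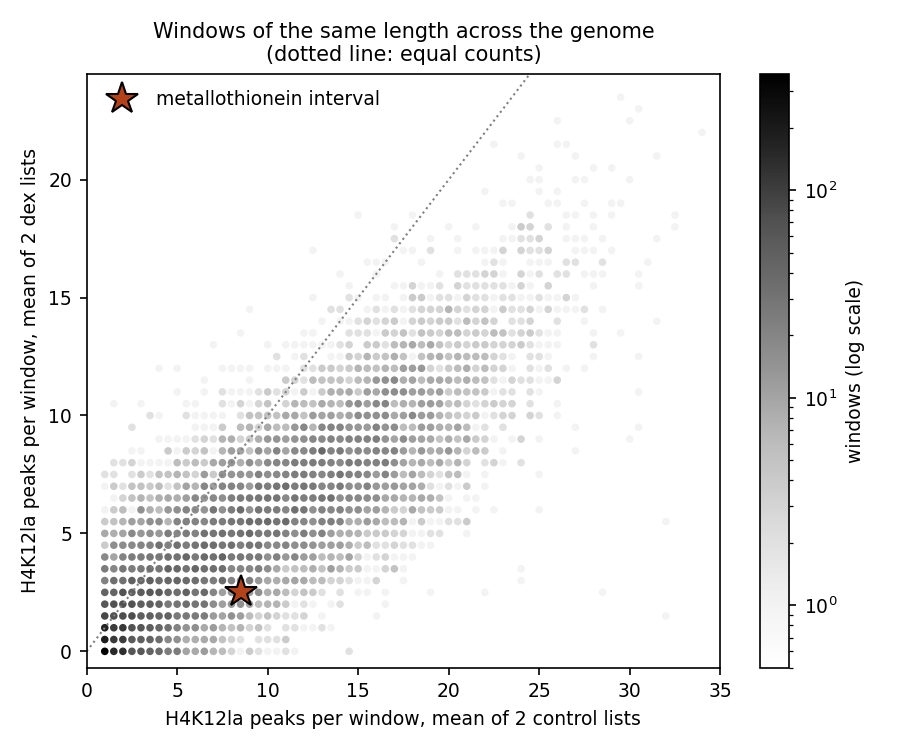
Mean number of H4K12la peaks per window of 134669 bp in the 2 control lists (horizontal) and the 2 dexamethasone lists (vertical). Grey shades give the number of windows on a log scale, the dotted line marks equal counts and the star the interval, at 8.5 and 2.5.

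An end peak was listed for 5 and 3 members without dexamethasone and for 3 and 1 with it, so the groups touched. The means were 4 ± 1.41 and 2 ± 1.41 (SD, n = 2 each), with exact permutation p = 0.667. Over all protein-coding genes the shares were 63.4% and 63.3% without dexamethasone and 39.7% and 33.1% with it. In each list the cluster had a lower share of genes with an end peak than the genome. No member had an end peak in both dexamethasone and neither control list, a pattern of 0.764% of all genes, and no member had one in all 4 lists, a pattern of 23.6%.

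Joined over the 4 lists, the peaks of the interval made 13 regions, 8 of them in an end window of a member. Both control and neither dexamethasone list held 4 of the 13, against 18% of 184761 regions genome-wide. These were the regions at the MT1E end and the MT1X promoter and a pair away from genes. One of the pair spanned chr16:56614017-56614868, 4520 bp above MT2A, with heights of 40 and 38. The other spanned chr16:56691093-56692476, 6897 bp above MT1X, with heights of 18 and 19. Both control lists and dexamethasone replicate 1 held 2 regions, the one upstream of MT2A and one at chr16:56679708-56680387, 2083 bp below MT1X. At the latter the control heights were 29 and 23, with 23 in dexamethasone replicate 1, which was not below both control values. GR peaks met 3 of the 13 regions, against 3.84% of all regions. The interval was drawn around genes and the genome-wide regions were not, so the 2 sets are not alike in this.

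The dexamethasone libraries had no region in common within the interval, against 22.3% of regions genome-wide held by both. None of the 4 peaks of replicate 1 overlapped the 1 peak of replicate 2, while 50.9% of all peaks of replicate 1 overlapped replicate 2 and 60.7% the reverse. Between control libraries 6 of 11 and 6 of 6 peaks overlapped, against 67.8% and 75.8% over the whole lists. Each dexamethasone peak of the cluster thus rested on 1 library.

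Genes that handle zinc, copper and cadmium outside the cluster were described as a list of 35. The control lists had an end peak for 27 and 30 of them, the dexamethasone lists for 19 and 16, where 63.4%, 63.3%, 39.7% and 33.1% of all protein-coding genes had one. Of the 35, 8 genes had an end peak in both control lists and in no dexamethasone list, beside 18.8% of all genes, and 1 gene, the zinc importer gene SLC39A3, had the reverse pattern with heights of 30 and 31, beside 0.764% of all genes. SLC39A9, a zinc transporter gene, had the highest ranked control-only peaks, with heights of 143 and 149, followed by the zinc exporter gene SLC30A6 with 118 and 112 and SLC39A13 with 66 and 77. COX17, a copper chaperone gene of mitochondria, had control heights of 83 and 146, and 38 in dexamethasone replicate 1. SLC30A7, a zinc transporter gene of the Golgi, was in all 4 lists with 158 and 164 against 28 and 29, as were 12 of the list and 23.6% of all genes. SOD1, the gene of the copper and zinc superoxide dismutase, had a peak of height 44 in control replicate 2 alone. SLC39A9, SLC30A6 and SLC30A7 share an end window with another gene.

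GR end peaks were listed for 18 of the 35, SLC39A9, SLC30A6, COX17, SLC30A7, SOD1 and SLC39A3 among them. Of all protein-coding genes 32.3% had one, and of those with an H4K12la end peak in both control lists 51.3% did. Only 27 of the 35 had an end peak in both control lists, and SOD1 and SLC39A3 did not. The 51.3% is thus not a like background for the 18 of 35. MTF1, the gene of the metal-sensing factor, had control heights of 58 and 69, dexamethasone heights of 26 and 20, and a GR end peak. MTF1 and SLC39A3 were named after their values were seen, and the windows of MTF1 are shared with neighbouring genes.

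By the height percentiles at gene ends in the 4 lists, with 0 where no peak is listed, the genes most like MT2A were ARPIN, ASCC1 and ANAPC16. The largest of the 4 differences in percentile was 0.78 points for ARPIN and 1.17 points for ASCC1 and ANAPC16, which share a peak. ARPIN had heights of 57, 73 and 17 with none in dexamethasone replicate 2, and no GR end peak. ASCC1 and ANAPC16 had 56, 79 and 17, and a GR end peak. The measure rests on 4 lists, and all protein-coding genes were searched.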

How the data were processed

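The labels put the 5 CUT&Tag libraries into their groups. The submitters' processing notes name fastp 0.19.6, Bowtie2, deepTools and the build GRCh38 (hg38). The peak caller, its settings and any control library or blacklist were not given in the sources used here. Each library has 1 list. In the H4K12la lists the authors deposited positions, summits and, per peak, a whole-number signal that is called its height here. The GR list holds positions and lengths in bp alone, as deposited by the authors, and its 8065 rows are 53.1% of the range of its row numbers, for a reason that is not stated.

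Peaks off the numbered chromosomes, X and Y were dropped, which removed 2.02% to 2.51% of H4K12la peaks and no GR peak. Gene positions, promoters and strands were taken from RefSeq tables built on GRCh38.p14. A peak counted when it overlapped an interval by 1 bp or more, and the end windows span 1 kb on each side of both ends of a gene. Groups were compared with an exact permutation test over libraries. Counts of members stand beside the same count over all genes, regions or windows, except under the alternatives below, and no gene list was tested. Members and lists were chosen with earlier results of these data known. All members, the neighbouring genes, up to 6 genes of the metal list with a GR end peak or a group-specific pattern, in order of percentile rank, and the 3 genes most like the leading member were named, with SLC39A3 and MTF1 added after their values were seen.

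Alternatives were a height filter, equal peak numbers, other flanks, windows and overlap rules, the replicate number as a block, leaving out each library and, chosen after seeing the data, peaks per 100000 listed. Promoters were aligned globally (match 1, mismatch -1, gap opening -2, gap extension -0.5). The gene calls were tested on simulated peak lists, in which 200 of 200 planted control-only genes among 20037 were recovered with 0 false calls. Planted genes had no close neighbours, so this checks the code alone. Software was Biopython 1.88, matplotlib 3.10.9, pandas 2.3.3, numpy 2.4.6 and Python 3.11.15.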

Additional observations from a re-analysis of the deposited data

How the results depend on the processing

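The differences between groups in peak number, covered length and members with an end peak kept their direction, dexamethasone below control, under every alternative run, and none could pass 0.05 with 2 libraries a group. Leaving out 1 library gave differences of -8.5 to -3.5 peaks, -6341 to -3961 bp and -3 to -1 members. On leaving out a library, values moved by over 1.5 times for peak number without control replicate 1 (-3.5). They did so for members without control replicate 1 or dexamethasone replicate 2 (-1 each). With 67582 highest peaks from each list the differences were -3 peaks, -3086 bp and -1 member, so all 3 moved by over 1.5 times. Per 100000 listed peaks the difference was -3.80. The count of control-only members was 1 (MT1E), 0 with equal peak numbers, 2 with windows of 500 bp (MT2A and MT1E), and 1 to 2 on leaving out a library (MT2A joined MT1E without dexamethasone replicate 1, and MT1X without dexamethasone replicate 2). Among peaks above the median height of their list it was again 1, but MT2A in place of MT1E. No share of all protein-coding genes is given under these alternatives, so the changes in this count have no background. The GR counts of 3 members and 4 peaks were the same under all alternatives run. The labels do not link libraries by replicate number. With the number as a replicate block the mean differences were again -6 peaks, -5151 bp and -2 members, with exact sign-flip p = 0.5, the smallest that 2 pairs allow. The deviations of same-numbered libraries from their group means correlated at 0.048 over 22908 windows. Depth is unknown, which limits every comparison of heights and counts between lists.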

Other observations

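Apart from LOC124903695, which shares the peaks upstream of MT2A and has a GR end peak, other genes in or beside the interval had few peaks. The metallothionein pseudogenes MT1L, MT1JP, MT1DP, MT1CP and MT1IP, the pseudogene DPPA2P4, the snRNA gene LOC124903782 and the noncoding RNA genes LOC101927536 and LOC105371287 had no end peak of either target in any list. MT4, a metallothionein of stratified epithelia that lies just below the interval, had an end peak in dexamethasone replicate 2 alone, with a height of 15. MT4 thus had no end peak in control, while the protein-coding genes BBS2, beyond MT4, and NUP93, above the interval, carried H4K12la there. BBS2, a gene of the cilium, had control heights of 19 and 20 and no end peak in the dexamethasone lists. The nuclear pore gene NUP93 and its divergent noncoding gene NUP93-DT shared a control peak (70 and 68), and NUP93 had an end peak of height 31 in dexamethasone replicate 1. Of the genes named here, LOC124903695 alone had a GR end peak.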
